A study of Mus musculus with 8 samples.

Results

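Collagen genes were followed in bulk RNA-seq of mouse embryonic fibroblasts on days 2, 4, 6 and 8 of reprogramming. The family was taken as every gene of the expression table whose identifier maps to a symbol of the form Col, a number, a and a number, and it held 44 of the 32108 genes listed. Above 1 CPM (reads of a gene scaled to a library total of 1000000) in 2 or more libraries were 35 of the 44. Of all 32108 genes listed, 15358 reached 1 CPM in 2 or more libraries. By mean CPM, 18 of the 35 collagen genes were highest on D4, 5 on D2, 5 on D6 and 7 on D8. Col4a1, Col4a2, Col4a5 and Col6a3 are counted under D4, though the test used below did not tell their D4 and D2 levels apart. Nor did it tell D4 from D6 for Col23a1, or D6 from D4 and D8 for Col11a2, Col14a1 and Col25a1. D6 and D8 were not told apart for Col4a4 and Col9a3, counted under D6, or for Col4a3, Col24a1 and Col28a1, counted under D8. For Col4a6 and Col7a1, counted under D2, the D2 and D4 levels were not told apart. The count of highest days over all genes was not made.

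Collagens are matrix proteins built from chains that wind around each other in a helix, and each gene encodes 1 chain. Fibrillar collagens (types I, II, III, V, XI, XXIV and XXVII) form or nucleate banded fibrils, network collagens (IV, VIII and X) form sheets in basement membranes and other matrices, and FACIT collagens sit on the surface of fibrils. Transmembrane collagens stay anchored in the plasma membrane, type VI forms beaded microfilaments, and the multiplexins XV and XVIII belong to basement membrane zones. Fibroblasts secrete large amounts of types I, III, V and VI, and the loss of fibroblast traits and the gain of epithelial traits are known early events of reprogramming.

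All cells were 4F2A fibroblasts, from male homozygous embryos of 13.5 dpc. Cells of this strain express Oct4, Sox2, Klf4 and c-Myc on doxycycline, from 1 transgene inserted at the Col1a1 locus. Per the labels, 2 µg/mL doxycycline was given from day 0, in a medium with serum replacement and with LIF at 1000 U/mL, the cytokine that sustains mouse pluripotent cells. The 4 groups are D2, D4, D6 and D8, of 2 libraries each, all titled as controls, and day 0 cells or cells without doxycycline were not analysed here. Whether the pair of libraries of a day comes from separate cultures is not stated, so the p-values only measure how far these libraries differ, which may be technical spread.

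Libraries held 19409936 to 20161021 counted reads, and 3 reads, taken as the floor because a count of 0 still allows that many, correspond to 0.149 to 0.155 CPM. The summed level of the 4 factors was 932 to 959 CPM on D2 and 1782 to 1815 CPM on D8. All 10 fibroblast markers listed for the check passed 1 CPM in at least 2 libraries. Changes below are differences of mean log2(CPM + 1) with their standard error (SE), which understate the change of low genes, and folds are ratios of mean CPM. A gene was called at a limma adjusted p under 0.05, with Benjamini-Hochberg adjustment over all 15358 genes tested, and "rose" and "fell" are used only of called genes.

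Collagen reads made up a large and changing share of the libraries. The 44 genes together took 3.37% of reads in replicate 1 and 3.38% in replicate 2 of D2, 5.15% and 5.58% on D4, 3.66% and 4.12% on D6, and 3.43% and 3.85% on D8. Both D4 libraries stood above all other libraries, and the ranges of D6 and D8 overlapped. Fibrillar genes supplied most of the change, with 2.69% ± 0.00743 of reads on D2 and 4.48% ± 0.284 on D4 (SD, n = 2). Beaded filament genes took 0.239% ± 0.00301 on D2 and 0.347% ± 0.0015 on D4, network genes 0.268% ± 0.00302 and 0.288% ± 0.00655, and FACIT genes 0.158% ± 0.00339 and 0.229% ± 0.0104. Transmembrane genes took 0.000261% on D2 and 0.00428% on D8, the smallest share of any class on D2, D4 and D6. In bulk RNA, fewer cells of a type and less RNA per cell cannot be told apart.

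**Figure D1:**
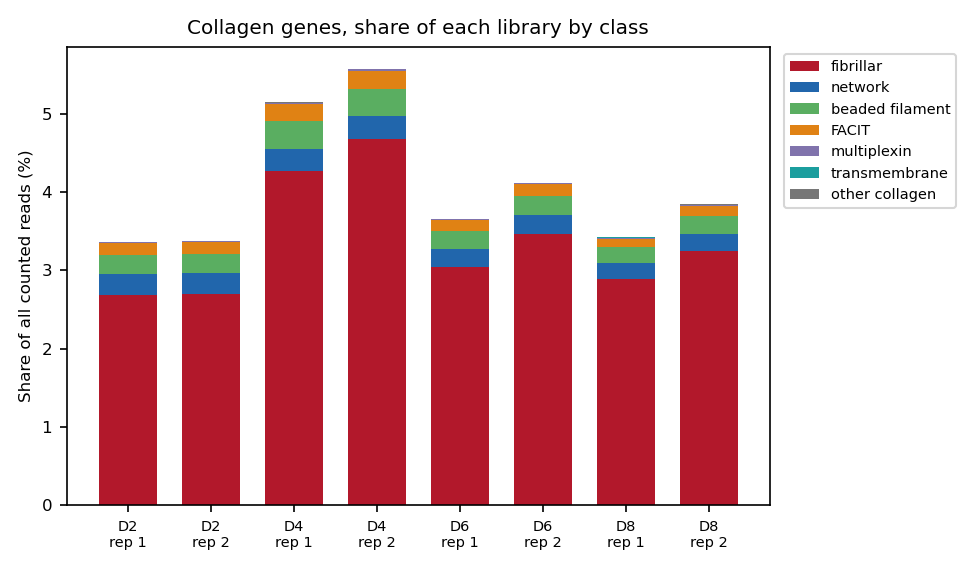
Share of all counted reads taken by each collagen class (y axis, percent) in each of the 8 libraries (x axis), stacked so that the bar height is the share of all 44 genes. Both D4 bars, at 5.15% and 5.58%, are taller than every other bar, and fibrillar genes fill most of each bar.

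The composition shifted towards type III. Col1a1, Col1a2 and Col3a1 held 59.8% ± 0.155 of collagen reads on D2, 69.2% ± 1.08 on D4, 72.1% ± 0.672 on D6 and 73.0% ± 0.267 on D8 (SD, n = 2). Within this sum Col3a1 went from 6.07% ± 0.0881 of collagen reads on D2 to 19.7% ± 1.07 on D4 and 23.7% ± 0.81 on D8, while Col1a2 went from 21.6% ± 0.269 on D2 to 17.9% ± 0.0867 on D8. Col1a1 held 32.2% ± 0.0261 on D2 and 31.5% ± 0.63 on D8.

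From D2 to D4, 22 of the 35 tested collagen genes rose, where 40.9% of all tested genes rose, and 3 fell, where 21.7% of all tested genes fell (62.5% in either direction). The median change of the 35 was 0.48 and that of all tested genes 0.11. From D4 to D6 the balance turned: 7 collagen genes rose against a background of 25.2%, and 20 fell against 12.6% (37.7% in either direction), with a median of -0.30 beside 0.07 for all tested genes. From D6 to D8, 4 rose (background 4.72%) and 8 fell (background 4.39%, and 9.11% in either direction), with a median of -0.09. Over the whole course, D8 against D2, 17 rose (47.3%) and 12 fell (23.1%, and 70.4% in either direction), and the median of 0.20 lay close to the 0.17 of all tested genes. The 9 genes that missed the low-value filter are not in these counts, and the filter let some genes in only through the days on which they were high.

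Other scalings lowered the background. In D4 against D2 the median of all tested genes became 0.0072 with median-of-ratios scaling and -0.03 with quantile normalization, and in D8 against D2 it was 0.0007 and -0.05. Genes that rose made up 65.3% of all calls in D4 against D2 as deposited, 52.0% with median-of-ratios scaling and 47.1% with quantile normalization. The same shares were 66.7%, 48.7% and 47.7% in D6 against D4 and 67.2%, 51.4% and 45.1% in D8 against D2. Collagen genes that rose from D2 to D4 numbered 21 under either scaling, and those that fell numbered 7 in place of 3. Over all 15358 tested genes, 5031 rose and 4651 fell from D2 to D4 with median-of-ratios scaling. Quantile normalization gave 4407 and 4958, beside 6276 and 3330 as deposited.

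**Figure D2:**
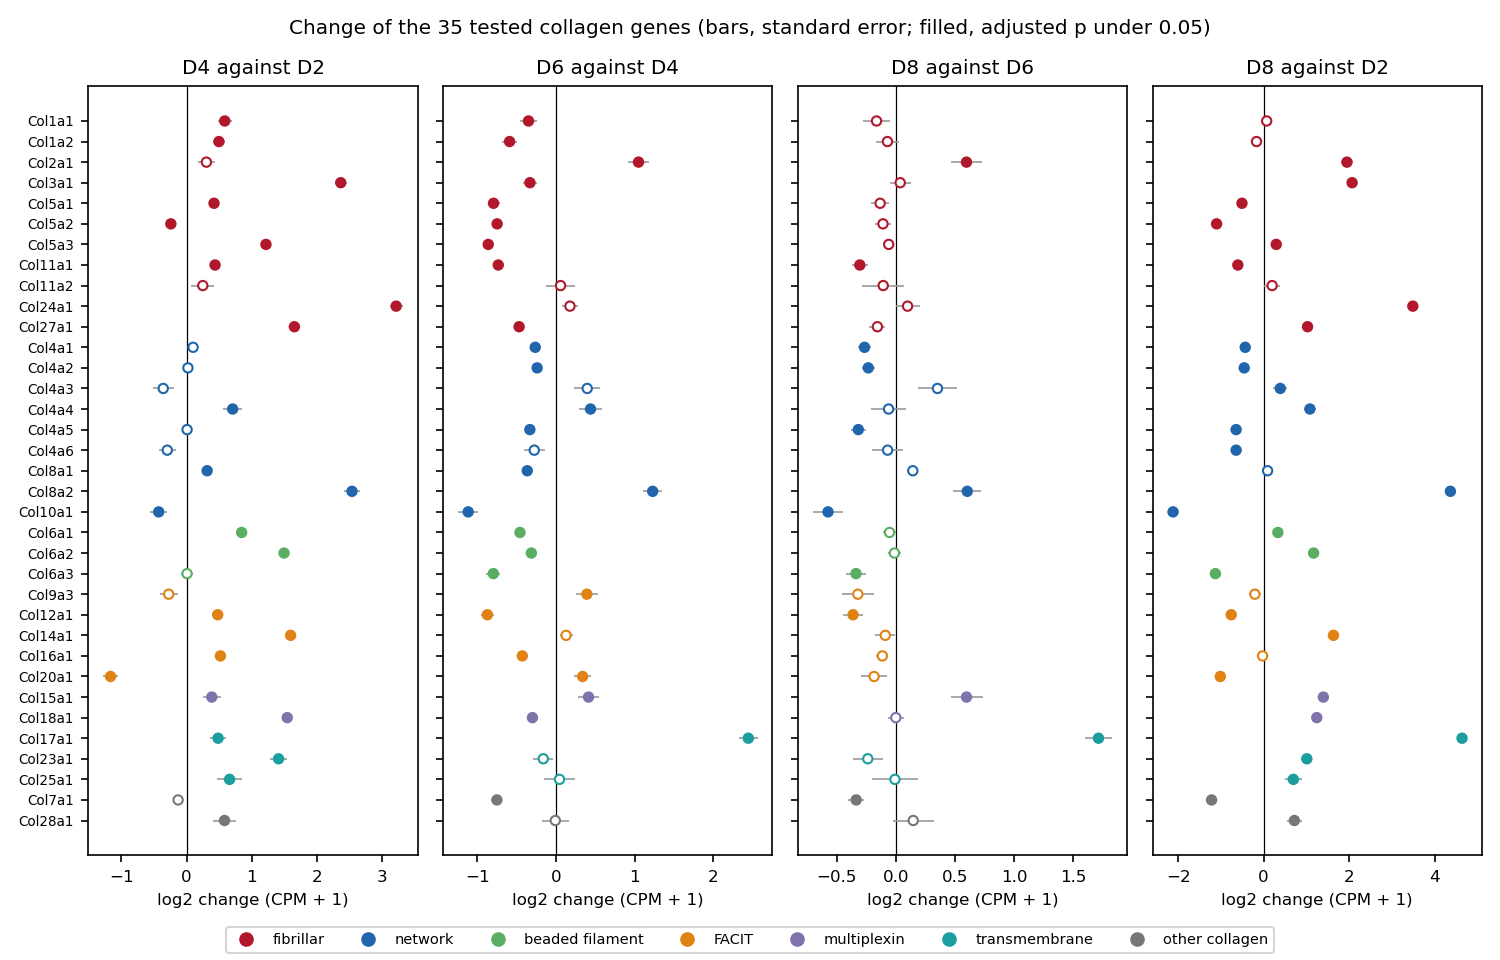
Change of log2(CPM + 1) (x axis) of each of the 35 tested collagen genes (y axis, coloured by class) in the 4 comparisons of days, with bars for the standard error and filled points for an adjusted p under 0.05. Most filled points lie right of 0 in D4 against D2 (22 of 25) and left of 0 in D6 against D4 (20 of 27).

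Single steps combined into several courses, and the share of all tested genes that followed each course was not computed. The most frequent was a rise to D4, a fall to D6 and no call to D8, seen in 11 genes: Col1a1, Col1a2, Col3a1, Col5a1, Col5a3, Col6a1, Col6a2, Col8a1, Col16a1, Col18a1 and Col27a1. Col11a1 and Col12a1 rose to D4 and then fell at both later steps. No call at the first step and falls at both later ones were found in 5 genes, Col4a1, Col4a2, Col4a5, Col6a3 and Col7a1. A rise to D4 with no later call was found in 5 others, Col14a1, Col23a1, Col24a1, Col25a1 and Col28a1. Only Col8a2, Col15a1 and Col17a1 were called higher at all 3 steps, and only Col10a1 was called lower at all 3. Col2a1, Col4a4, Col5a2, Col9a3 and Col20a1 each had a course shared with no other member, and Col4a3, Col4a6 and Col11a2 had no call at any step. The fall of Col18a1 to D6 was lost with no filter (limma adjusted p = 0.057). The rise of Col28a1 to D4 was lost with no filter (0.0715) and after quantile normalization (0.0702). Without D6 replicate 1 the Col18a1 change was -0.25, and without D2 replicate 2 that of Col28a1 was 0.41, and neither was called. Each call between D6 and D8 other than that of Col17a1 was lost without D6 replicate 2, and also with no filter on low values. In both of these fits the calls of that step became fewer over all tested genes as well.

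The fibrillar chains of types I and III took most collagen reads. Whether the transgene at the Col1a1 locus affects the reads counted for Col1a1, and so its ratios to other chains, was not tested. Col1a1, the alpha 1 chain of type I collagen, read 10848 and 10885 CPM on D2, 14714 and 18029 on D4, 12002 and 13644 on D6, and 10932 and 11929 on D8. Both D4 libraries lay above all others, and D8 lay above D2 in both libraries with no call (0.07 ± 0.11; adjusted p = 0.579). It rose from D2 to D4 by 0.58 ± 0.11 on the log2 scale (SE; adjusted p = 0.000457; 1.51-fold). The fall to D6 (-0.35 ± 0.11; adjusted p = 0.0251) was not called without D4 replicate 2 (adjusted p = 0.179) or without D6 replicate 1 (0.193) or with no filter (0.228), and each D2 library also ended the call when left out (0.0625 and 0.0627). Its partner Col1a2, the alpha 2 chain, read 7191 and 7353 CPM on D2, 10031 and 10465 on D4, 6284 and 7389 on D6, and 6098 and 6892 on D8. D6 spanned the D2 level, and D8 lay below it in both libraries with no call (-0.17 ± 0.09; adjusted p = 0.132), though median-of-ratios scaling gave one (-0.35; adjusted p = 0.00684), as did leaving out D8 replicate 2 (-0.25; adjusted p = 0.0418).

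Col3a1, the chain of type III collagen, made the largest rise among the abundant members. It read 2063 and 2031 CPM on D2, 10519 and 10547 on D4, 7924 and 8867 on D6, and 7919 and 9330 on D8. The libraries of D4, D6 and D8 all lay above those of D2, and those of D6 and D8 overlapped. The 5.15-fold rise to D4 had a log2 change of 2.36 ± 0.09 (adjusted p = 1.46e-10), and the change from D2 to D8 was 2.07 ± 0.09 (adjusted p = 2.33e-10). The fall from D4 to D6 (-0.33 ± 0.09; adjusted p = 0.0115) was lost after quantile normalization (-0.05; adjusted p = 0.556), without D6 replicate 1 (adjusted p = 0.116) and with no filter (0.123).

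Per kilobase of the principal transcript, Col1a1 stood first on every day, with 1832 ± 4.47 CPM per kb on D2 and 1928 ± 119 on D8 (SD, n = 2). Col3a1 stood at rank 4 among the collagens on D2, with 368 ± 4.14 CPM per kb, and at rank 2 on D6 and D8, with 1509 ± 120 and 1550 ± 179. With all exons taken as the length, its D2 level was 208.5 CPM per kb, at rank 5. On D4 Col1a2 (1916 ± 57.3) and Col3a1 (1893 ± 3.54) differed by less than the spread of Col1a2, and their order turned when all exons were taken as the length.

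Type V chains, which co-assemble with type I and limit fibril width, parted from each other. Col5a1 read 2965 and 2982 CPM on D2, 3862 and 4095 on D4, 2143 and 2460 on D6, and 1994 and 2196 on D8. Col5a2 read 3361 and 3284 CPM on D2, 2814 and 2801 on D4, 1577 and 1774 on D6, and 1488 and 1615 on D8. On D4 Col5a1 was above and Col5a2 below its D2 libraries, and both then lay below D2 on D6 and D8. From D2 to D4 Col5a1 rose (0.42 ± 0.08; adjusted p = 0.000343) and Col5a2 fell (-0.24 ± 0.07; adjusted p = 0.00757), the latter call lost without D2 replicate 1 (adjusted p = 0.0715) or with no filter (0.0592). From D4 to D6 both fell (-0.79 ± 0.08 and -0.75 ± 0.07). The remaining chain, Col5a3, read 124 and 125 CPM on D2, 289 and 293 on D4, 161 and 159 on D6, and 151 and 155 on D8, a 2.33-fold rise (1.22 ± 0.04; adjusted p = 1.04e-10) and a fall that left both D8 libraries above D2.

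Type XI chains nucleate fibrils, in cartilage together with type II. Col11a1 read 307 and 305 CPM on D2, 409 and 419 on D4, 254 and 244 on D6, and 183 and 221 on D8, with D4 above and D6 and D8 below D2. Its decline from D2 to D8 was -0.60 ± 0.07 (adjusted p = 4.18e-06). Col11a2 stayed between 2.20 and 4.28 CPM with no call in any comparison. Col2a1, the type II chain of cartilage, read 6.20 and 7.22 CPM on D2, 7.89 and 9.12 on D4, 19.8 and 17.5 on D6, and 33.6 and 24.5 on D8. It rose from D4 to D6 (1.05 ± 0.13; adjusted p = 6e-05; 2.19-fold), and its D8 level was 4.33-fold that of D2.

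Cartilage markers were counted beside Col2a1. Of 7 chondrocyte markers, 3 passed 1 CPM in 2 or more libraries, and their summed level was 15.7 to 17.1 CPM on D2, 11.9 to 13.4 on D4, 18.4 to 19.2 on D6 and 20.01 to 21.6 on D8. Acan, the cartilage proteoglycan, read 0.496 and 0.747 CPM on D2 and 0.0515 and 0.154 on D8. Matn3 went down as well, from 0.992 and 0.946 CPM on D2 to 0.206 and 0.0513 on D8. Both missed the low-value filter and were not tested. Chad stayed at or under 0.409 CPM and Matn1 at or under 0.154, about the floor. Sox9, the regulator of Col2a1 in chondrocytes, read 9.24 to 14.8 CPM in all libraries. Comp, a cartilage and tendon matrix protein, rose from 0.149 and 0.199 CPM on D2 to 4.59 and 5.54 on D8 (2.36 ± 0.17; adjusted p = 3.39e-08), and Hapln1, a link protein of cartilage, from 0.645 and 0.249 to 2.01 and 1.44 CPM (0.92 ± 0.16; adjusted p = 0.000142). The part of such cells in the rise of Col2a1 was not tested.

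Types XXIV and XXVII were the last fibrillar types to be described, and both changed early. Col24a1 read 1.84 and 1.79 CPM on D2, 25.8 and 24.4 on D4, 30.8 and 26.4 on D6, and 28.0 and 33.5 on D8, so that all libraries from D4 on lay far above D2. Its 13.8-fold rise (3.21 ± 0.10; adjusted p = 2.74e-11) was the largest change of log2(CPM + 1) of any of the 35 collagens from D2 to D4, although by the ratio of mean CPM Col8a2 rose more (17.3-fold). No later step of Col24a1 was called. Col27a1 read 24.3 and 22.9 CPM on D2, 74.7 and 77.9 on D4, 58.1 and 51.9 on D6, and 47.6 and 50.7 on D8. It rose 3.23-fold (1.65 ± 0.07; adjusted p = 2.87e-10), and although it fell to D6, every later library remained above D2.

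**Figure D3:**
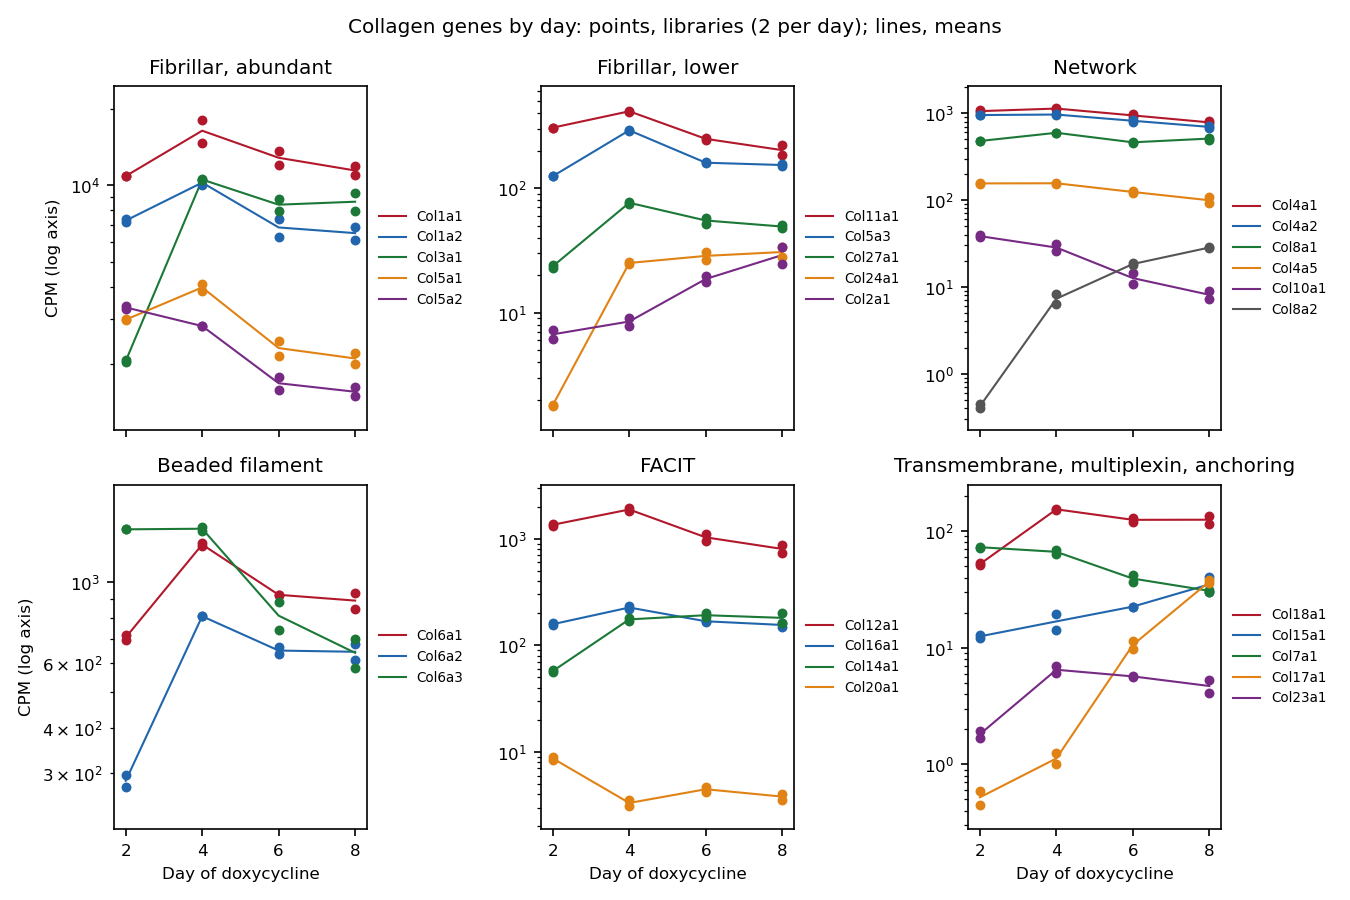
CPM on a log axis (y) against day of doxycycline (x) for the 28 collagen genes drawn, with points for libraries and lines through the means of the 2 libraries. Most abundant genes have their highest mean on D4. Col3a1 jumps from 2047 to 10533 CPM between D2 and D4, and Col8a2, Col2a1 and Col17a1 are highest on D8.

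Among network collagens, the basement membrane chains declined late. Col4a1 read 1073 and 1035 CPM on D2, 1109 and 1148 on D4, 901 and 981 on D6, and 761 and 803 on D8. Its partner Col4a2 read 954 and 945 CPM on D2, 946 and 979.6 on D4, 791 and 841 on D6, and 668 and 719.5 on D8. Neither was called from D2 to D4 as deposited, whereas quantile normalization called both higher (0.41 and 0.30). Both fell from D4 to D6 (-0.26 ± 0.06 and -0.24 ± 0.05, the latter not called without D6 replicate 1, adjusted p = 0.0518) and from D2 to D8 (-0.43 ± 0.06, adjusted p = 1.56e-05, and -0.45 ± 0.05, adjusted p = 6.54e-06). Col4a5 followed the same course, with 152 and 158 CPM on D2, 154 and 158 on D4, 122 and 126 on D6, and 91.4 and 107 on D8 (D8 against D2, -0.64 ± 0.07; adjusted p = 1.23e-06). The other chains were scarce: Col4a6 fell from D2 to D8 within 2.22 to 4.63 CPM, Col4a4 rose from 0.546 and 0.797 CPM on D2 to 2.45 and 2.61 on D8 (1.08 ± 0.15; adjusted p = 2.01e-05), and Col4a3 ranged from 0.275 to 1.72 CPM with 1 call, higher on D8 than on D2 (0.39 ± 0.16; adjusted p = 0.0454). That call was lost with a pseudocount of 0.1, no filter, either other scaling or either D2 library left out, and its direction turned after quantile normalization (-0.018).

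The type VIII chains, which form hexagonal lattices in vessel and eye, took separate courses. Col8a1 read 478 and 476 CPM on D2, 590.1 and 597 on D4, 466 and 456 on D6, and 496 and 523 on D8, with D4 above all other libraries. Col8a2 read 0.446 and 0.398 CPM on D2, 6.29 and 8.32 on D4, 18.9 and 17.8 on D6, and 28.2 and 28.6 on D8, rising at each step with no overlap between days. Its level on D8 was 67.2-fold that of D2 (4.37 ± 0.12; adjusted p = 2.52e-12), and per kilobase of transcript the D8 level was 99.7 CPM for Col8a1 and 6.55 CPM for Col8a2. The fold rests on low D2 values, beside a floor of 0.149 to 0.155 CPM, and Col8a2 passed the filter only through libraries after D2. The last step of Col8a2 (0.60 ± 0.12; adjusted p = 0.00897) was not called without D6 replicate 2 (adjusted p = 0.0657), D8 replicate 1 (0.0591) or D8 replicate 2 (0.0581).

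Col10a1, the network collagen of hypertrophic cartilage, went the other way. It read 39.4 and 37.4 CPM on D2, 25.7 and 31.1 on D4, 10.9 and 14.4 on D6, and 8.99 and 7.23 on D8, falling with no overlap between days. The D2 level was 4.73-fold that of D8 (-2.12 ± 0.13; adjusted p = 7.33e-09), the largest fall of any of the 35 collagens. Its first step (-0.43 ± 0.13; adjusted p = 0.0109) was lost without D2 replicate 1 (0.0658) or D4 replicate 1 (0.102) and with no filter (0.0915), and its last without D6 replicate 2 (0.135) or D8 replicate 2 (0.126). The gene shares 18 exon bases with Nt5dc1 on the opposite strand, which read at most 17.6 CPM, and whether reads were counted by strand is not given in the sources used here.

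Beaded filament chains of type VI moved unequally. Col6a1 read 695 and 717 CPM on D2, 1275 and 1259 on D4, 925 and 922 on D6, and 846 and 935 on D8. Col6a2 read 275 and 297 CPM on D2, 806 and 807 on D4, 637 and 663 on D6, and 614 and 676 on D8. For both, every library after D2 lay above the D2 libraries. The rise to D4 was 1.80-fold for Col6a1 (0.84 ± 0.06; adjusted p = 3.05e-08) and 2.82-fold for Col6a2 (1.49 ± 0.06; adjusted p = 1.72e-10). Col6a3, the longest chain of the trimer, read 1395 and 1393 CPM on D2, 1381 and 1418 on D4, 738 and 881 on D6, and 581 and 701 on D8. Its change to D4 was not called as deposited (0.01 ± 0.09; adjusted p = 0.962) but was called higher after quantile normalization (0.34; adjusted p = 0.00819), and it fell from D2 to D8 (-1.13 ± 0.09; adjusted p = 8.6e-08). The alternative chains Col6a4, Col6a5 and Col6a6 never exceeded 0.923 CPM.

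FACIT members divided by level. Col12a1, abundant in tendon and on type I fibrils, read 1327 and 1380 CPM on D2, 1822 and 1944 on D4, 961 and 1102 on D6, and 733 and 873 on D8, with D4 above and D6 and D8 below D2. It fell over the course (-0.76 ± 0.08; adjusted p = 2.49e-06). Col14a1, which also binds fibrils of skin and tendon, read 56.4 and 58.3 CPM on D2, 169 and 182 on D4, 201 and 183 on D6, and 161 and 201 on D8, a 3.06-fold rise to D4 (1.59 ± 0.08; adjusted p = 3e-09) that held at the later days. Col16a1 rose to D4 from 161 and 155 to 221 and 232 CPM and read 150.03 and 161 CPM on D8. Its change from D2 to D8 was not called as deposited (-0.02 ± 0.05; adjusted p = 0.692). Median-of-ratios scaling called it lower (-0.21; adjusted p = 0.00491). Col20a1 read 8.95 and 8.42 CPM on D2 and 3.12 to 4.72 CPM in all later libraries, a fall to D4 (-1.17 ± 0.11; adjusted p = 1.12e-06) and the one collagen fall at that step called under every setting tried. Col9a3 ranged from 0.928 to 2.02 CPM with 1 call, higher on D6 than on D4 (0.39 ± 0.14; adjusted p = 0.0366). That call was lost under both other scalings (0.0584 and 0.20), with no filter (0.088) and in 4 of the 8 fits that left out 1 library. Of its exon bases, 6.07% are shared with Tcfl5 on the opposite strand, which reached 20.1 CPM.

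Transmembrane collagens were scarce on D2 and all 3 that passed the filter rose by D8. Col17a1 and Col25a1 passed it only through libraries after D2, so the filter itself favoured a rise among these members. Col17a1, the hemidesmosomal collagen that ties epithelial cells to the basement membrane, read 0.595 and 0.448 CPM on D2, 1.25 and 1.00 on D4, 11.4 and 9.77 on D6, and 38.1 and 35.8 on D8. Each day lay above the day before it with no overlap. The rise was 9.40-fold from D4 to D6 (2.44 ± 0.12; adjusted p = 2.15e-08), 3.49-fold from D6 to D8 (1.72 ± 0.12; adjusted p = 1.16e-05) and 70.8-fold from D2 to D8 (4.64 ± 0.12; adjusted p = 1.55e-12), the largest of any of the 35 collagens. The small first step (0.48 ± 0.12; adjusted p = 0.00285) was not called after quantile normalization (adjusted p = 0.0969). Col23a1 read 1.93 and 1.69 CPM on D2 and 4.07 to 6.92 CPM in all later libraries (D4 against D2, 1.41 ± 0.13; adjusted p = 6.23e-07). Col25a1 ranged from 0.149 to 1.504 CPM, and its rise from D2 to D8 (0.70 ± 0.19; adjusted p = 0.0055) was not called after quantile normalization (adjusted p = 0.46) or without D2 replicate 2 (0.0602). Its rise to D4 was also lost under quantile normalization (0.138), with no filter (0.0711), and without D2 replicate 2 (0.0874) or D4 replicate 2 (0.142), and Col13a1 was at or under the floor of 3 reads in all 8 libraries.

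Epithelial markers were counted beside Col17a1. Of 7 markers, 4 passed 1 CPM in 2 or more libraries, and their summed level was 37.8 to 40.5 CPM on D2, 45.5 to 54.8 on D4, 112 to 139 on D6 and 163 to 174 on D8. Krt8, an early epithelial keratin, read 2.64 and 2.17 CPM on D2 and 134 and 116 on D8, and Cdh1, E-cadherin, read 5.70 and 4.43 CPM on D2 and 32.4 and 40.7 on D8. Epcam stayed at or under 0.974 CPM, Esrp1 at or under 0.359 and Krt18 at or under 0.515, and Krt19 went down from 31.3 and 30.8 CPM to 4.64 and 3.64. The part of epithelial cells in the rise of Col17a1 was not tested.

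The multiplexins, whose ends are released as endostatins, both rose over the course. Col18a1 read 50.9 and 53.5 CPM on D2, 156 and 152 on D4, 121 and 129 on D6, and 115 and 136 on D8, with every later library above D2 (D4 against D2, 2.95-fold, 1.54 ± 0.07; adjusted p = 8.17e-10). Col15a1 read 12.9 and 12.2 CPM on D2, 19.3 and 14.3 on D4, 22.6 and 22.5 on D6, and 29.9 and 40.1 on D8, 2.79-fold higher on D8 than on D2 (1.40 ± 0.14; adjusted p = 7.66e-07). Its first 2 steps lost their calls under both other scalings (adjusted p of 0.0855 and 0.274 for the first, 0.0623 and 0.0641 for the second), and each of its 3 steps lost its call under at least 3 of the fits that left out 1 library. Col7a1, which forms the anchoring fibrils under epithelia, read 72.3 and 73.4 CPM on D2, 64.1 and 68.8 on D4, 36.4 and 42.0 on D6, and 30.2 and 31.3 on D8, a fall over the course (-1.22 ± 0.07; adjusted p = 4.17e-09). Its first step was not called as deposited (-0.13 ± 0.07; adjusted p = 0.12). Median-of-ratios scaling (-0.24; adjusted p = 0.011) and quantile normalization (-0.20; adjusted p = 0.0324) called that step lower. Col7a1 and Col17a1, both parts of the skin's epithelial anchorage, thus moved in opposite directions. Col28a1 rose within 0.647 to 2.46 CPM (D8 against D2, 0.72 ± 0.17; adjusted p = 0.00211), a call lost after quantile normalization (adjusted p = 0.104).

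Set side by side, the classes differed in how many members were present and in when they moved, and differences between classes were not tested. All 11 fibrillar and all 9 network genes exceeded 1 CPM in 2 or more libraries, against 5 of 9 FACIT, 3 of 4 transmembrane, 3 of 6 beaded filament and 2 of 2 multiplexin genes. From D2 to D4, 8 of 11 fibrillar genes rose and 1 fell (median change 0.49), and 3 of 9 tested network genes rose and 1 fell (median 0.02). At that step 3 of 5 FACIT genes rose and 1 fell (median 0.48), and all 3 transmembrane genes rose (median 0.66), of which only Col23a1 was called under every setting tried. Col17a1 and Col25a1 passed the filter only through libraries after D2, as did the network genes Col4a3, Col4a4 and Col8a2, so the filter favoured a rise in them. From D4 to D6, 8 fibrillar genes fell and 1 rose (median -0.47), 5 network genes fell and 2 rose (median -0.26), 2 FACIT genes fell and 2 rose (median 0.13), and 1 transmembrane gene rose and none fell (median 0.05). From D2 to D8 the fibrillar class was split, 5 higher and 3 lower, whereas 5 network genes fell and 3 rose. The share of all tested genes called in each direction, given above, is the background for these counts.

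The 9 genes that did not exceed 1 CPM in 2 libraries were Col6a4, Col6a5, Col6a6, Col9a1, Col9a2, Col13a1, Col19a1, Col22a1 and Col26a1. None of their values passed 0.923 CPM. They include 4 FACIT genes, among them Col9a1 and Col9a2 of cartilage, and the 3 alternative type VI chains. At the threshold itself, Col4a3 and Col25a1 lay just inside, with 2 and 3 libraries above 1 CPM. Col6a4 lay just outside, with 0.902 and 0.923 CPM on D8. A level of 0.5 CPM in place of 1 CPM gave 40 genes and a level of 2 CPM gave 32.

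Chains that assemble together, and the main chains of types I and III, were then compared within each library as ratios of CPM, which do not depend on the scaling. The ratio of Col6a2 to Col6a1 was 0.396 and 0.415 on D2, 0.632 and 0.641 on D4, 0.688 and 0.720 on D6, and 0.726 and 0.723 on D8. The ratio of Col6a3 to Col6a1 was 2.01 and 1.94 on D2, 1.08 and 1.13 on D4, 0.799 and 0.956 on D6, and 0.687 and 0.750 on D8. The first went up and the second down with no overlap between consecutive days. For both, the exact permutation test over all arrangements of the 8 libraries in 4 days gave p = 0.00952, the smallest it can give here, and 0.0286 after adjustment over the 6 ratios. Without D8 replicate 1 the adjusted p of both was 0.114, without D6 replicate 2 or D8 replicate 2 it was 0.0571 for both, and without D4 replicate 2 it was 0.0571 for Col6a3 to Col6a1.

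Col5a2 to Col5a1 was 1.13 and 1.10 on D2 and 0.684 to 0.746 in the 6 later libraries, and the exact permutation p of 0.0476 was 0.0762 after adjustment. Col3a1 to Col1a1 was 0.190 and 0.187 on D2, 0.715 and 0.585 on D4, 0.660 and 0.650 on D6, and 0.724 and 0.782 on D8 (exact permutation p = 0.0571; adjusted p = 0.0762). Every later library was above D2 for this ratio, and the spread between the D4 libraries was wider than on any other day. Without D4 replicate 1 the adjusted p was 0.0286 for Col3a1 to Col1a1 and 0.0343 for Col5a2 to Col5a1 and Col1a2 to Col1a1. Without D4 replicate 2 it was 0.0381 for Col3a1 to Col1a1 and for Col1a2 to Col1a1. Col1a2 to Col1a1 ranged from 0.524 to 0.682 and Col4a2 to Col4a1 from 0.853 to 0.913 over all libraries, each with an exact permutation p of 0.0762 before and after adjustment. Col8a2 to Col8a1 was not tested, because Col8a2 was under 1 CPM on D2.

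**Figure D4:**
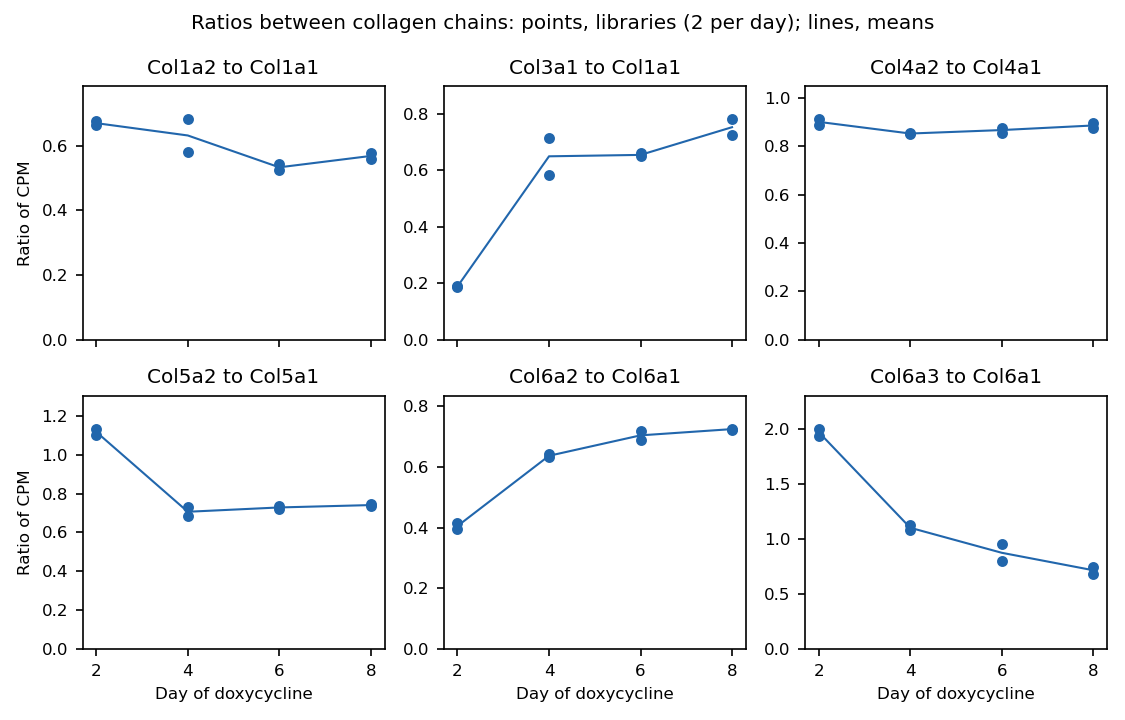
Ratio of CPM of collagen chains within each library (y axis, from 0) against day of doxycycline (x axis), with points for libraries and lines through the means of the 2 libraries. Col6a2 to Col6a1 climbs from 0.405 to 0.725, Col6a3 to Col6a1 descends from 1.98 to 0.718, and Col4a2 to Col4a1 stays between 0.853 and 0.913.

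Several collagen genes are neighbours in the genome (GENCODE M21 on GRCm38), and neighbours did not always move together. Col3a1 (chromosome 1, 45311538 to 45349706, plus strand) and Col5a2 (45374321 to 45503282, minus strand) face each other across 24.6 kb, and from D2 to D4 the first rose by 2.36 while the second had a change of -0.24. Col4a1 and Col4a2 lie head to head on chromosome 8 with 22 bases of overlap at their starts, and their ratio varied little. Col4a5 and Col4a6 lie head to head on chromosome X, 1.31 kb apart, at 15.2 and 0.352 CPM per kb of transcript on D8. Col4a3 and Col4a4 lie head to head on chromosome 1 with 0.071 kb between them, and neither exceeded 3.18 CPM. Col6a2 and Col6a1 lie in tandem on chromosome 10, 85.2 kb apart, and both rose to D4 and fell to D6.

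Promoters are shown for 4 members with large rises, namely Col3a1, Col24a1, Col8a2 and Col17a1. The sequences are RefSeq promoter windows of GRCm38.p6, read 5′ to 3′ on the gene's strand and limited to bases upstream of annotated exons (with the last base of a motif that crosses the start), and distances are from the RefSeq start. Capitals mark the searched motifs found in the printed bases. In Col3a1 (chr1:45311288-45311537, plus strand) they mark a TATA box 117 bases upstream, and in Col24a1 (chr3:145292222-145292472, plus strand) a cAMP response element that begins 7 bases upstream. In Col8a2 (chr4:126286544-126286792, plus strand) they mark 4 GC boxes, of which the 2 nearest to the start overlap, and in Col17a1 (chr19:47692095-47692292, minus strand) 2 TATA boxes 140 and 91 bases upstream.
Col3a1: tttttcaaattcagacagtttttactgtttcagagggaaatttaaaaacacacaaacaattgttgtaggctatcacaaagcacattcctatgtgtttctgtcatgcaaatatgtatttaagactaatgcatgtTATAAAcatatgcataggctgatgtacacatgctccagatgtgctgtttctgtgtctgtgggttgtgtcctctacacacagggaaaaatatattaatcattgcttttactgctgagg
Col24a1: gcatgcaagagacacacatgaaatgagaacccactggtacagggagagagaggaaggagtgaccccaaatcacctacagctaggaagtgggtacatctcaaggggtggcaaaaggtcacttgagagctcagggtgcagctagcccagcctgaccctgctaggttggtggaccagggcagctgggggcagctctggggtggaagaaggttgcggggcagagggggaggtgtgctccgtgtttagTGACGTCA
Col8a2: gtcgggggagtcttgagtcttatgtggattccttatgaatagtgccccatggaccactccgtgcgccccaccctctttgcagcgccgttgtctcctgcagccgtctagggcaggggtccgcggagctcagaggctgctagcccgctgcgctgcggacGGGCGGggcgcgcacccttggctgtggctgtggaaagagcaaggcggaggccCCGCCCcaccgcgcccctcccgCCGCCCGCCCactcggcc
Col17a1: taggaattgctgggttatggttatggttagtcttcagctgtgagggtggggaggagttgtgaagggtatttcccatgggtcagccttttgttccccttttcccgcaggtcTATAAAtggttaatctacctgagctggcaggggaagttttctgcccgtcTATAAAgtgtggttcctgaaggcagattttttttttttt

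Motifs were searched on both strands of windows from 250 bases before to 50 bases after each start, and 35 of the 44 collagen genes matched, with 38 windows. TATAAA was in 5 of the 38 windows, those of Col3a1, Col10a1, Col11a2, Col13a1 and Col17a1, and in 13.6% of all 32851 windows. GGGCGG, the GC box, was in 23 of the 38 and in 35.7% of all windows, and CCAAT was in 13 of the 38 and in 37.4% of all. TGACGTCA, the cAMP response element, was in the window of Col24a1 alone among the 38 and in 1.79% of all windows. TGANTCA, the AP-1 site, was in the window of Col6a1 alone among the 38 and in 7.81% of all windows. Overlapping matches of different motifs were each counted, and a match describes letters only.

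Genes that modify, fold, export, process and bind collagen were read as 4 lists. Hydroxylation and glycosylation enzymes act on the chains in the endoplasmic reticulum, and of 14 tested 5 rose and 7 fell from D2 to D4, beside 40.9% and 21.7% of all tested genes. P4ha1, a catalytic subunit of prolyl 4-hydroxylase, read 402 and 376 CPM on D2 and 97.3 to 126 CPM in all later libraries (D4 against D2, -1.68 ± 0.08; adjusted p = 6.9e-10). P4ha2, its paralogue, went from 139 and 131 CPM on D2 to 47.1 and 53.1 on D4 (-1.42 ± 0.07). The lysyl hydroxylase Plod1 read 189 and 180.4 CPM on D2, 110.5 and 112 on D4, 82.2 and 94.3 on D6, and 69.9 and 74.5 on D8, a fall over the course (-1.34 ± 0.06; adjusted p = 6.04e-10). P3h3, of the prolyl 3-hydroxylase family, rose to D4 from 92.0 and 90.8 to 166 and 158 CPM, and P4ha3 from 34.7 and 38.5 to 57.9 and 61.8 CPM. From D4 to D6, none of the 14 rose and 8 fell (25.2% and 12.6% of all tested genes), and from D2 to D8, 2 rose and 7 fell (47.3% and 23.1%).

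Collagen chaperones and export factors work in the endoplasmic reticulum and on the way out of it. Serpinh1, the collagen-specific chaperone HSP47, read 1215 and 1227 CPM on D2, 1191 and 1156 on D4, 1075 and 1096 on D6, and 1015 and 1006 on D8, a small fall over the course (-0.27 ± 0.05; adjusted p = 0.000252). Fkbp10, a prolyl isomerase of the endoplasmic reticulum, read 569 and 564 CPM on D2 and 301 and 308 on D8 (-0.89 ± 0.04; adjusted p = 1e-09), and its relative Fkbp14 rose from 59.99 and 60.5 CPM to 118 and 129 (1.03 ± 0.06; adjusted p = 2.88e-09). Of the 9 genes, 1 rose and 2 fell from D2 to D4 (40.9% and 21.7% of all tested genes), none rose and 6 fell from D4 to D6 (25.2% and 12.6%), and 1 rose and 7 fell from D2 to D8 (47.3% and 23.1%).

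Processing and crosslinking enzymes act outside the cell. Of 12 tested, 7 rose and 3 fell from D2 to D4 (40.9% and 21.7% of all tested genes), and 7 rose and 5 fell from D2 to D8 (47.3% and 23.1%). The procollagen N-proteinase genes rose to D4: Adamts2 from 39.4 and 41.3 to 88.6 and 98.7 CPM, Adamts3 from 8.43 and 8.87 to 19.8 and 22.7 CPM, and Adamts14 from 12.4 and 11.9 to 50.03 and 53.4 CPM (2.01 ± 0.08; adjusted p = 1.77e-10). Pcolce, an enhancer of C-propeptide cleavage, rose from 868 and 861 CPM on D2 to 1452 and 1474 on D8 (0.76 ± 0.05; adjusted p = 1.72e-08). The lysyl oxidase relative Loxl4 fell from 226 and 217 CPM on D2 to 46.3 and 42.9 on D4 and 23.3 and 27.4 on D8 (-3.08 ± 0.09; adjusted p = 4.05e-12). Lox itself read 2809 and 2887 CPM on D2, 1946 and 2178 on D4 and 2193 and 2266 on D8, and its change from D2 to D8 (-0.35 ± 0.06; adjusted p = 0.00028) was 0.00098 after quantile normalization.

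Collagen receptors changed in both directions as well. Itgb1, the shared beta chain of the collagen-binding integrins, read 2530.3 and 2484 CPM on D2, 928 and 907 on D4, 753 and 803 on D6, and 828 and 793 on D8 (D4 against D2, -1.45 ± 0.05; adjusted p = 1.18e-10). Of its alpha partners on the list, 3 rose to D4: Itga1 from 20.8 and 21.3 to 58.8 and 66.5 CPM, Itga10 from 1.61 and 1.73 to 6.06 and 6.23 CPM, and Itga11 from 19.9 and 19.6 to 48.4 and 59.5 CPM, with changes of 1.53, 1.42 and 1.40. The change of Itga2, from 1.14 and 0.946 to 1.30 and 1.65 CPM, was not called (0.28 ± 0.14; adjusted p = 0.101). Of the 9 receptors tested, 5 rose and 3 fell from D2 to D4 (40.9% and 21.7% of all tested genes), and 2 rose and 5 fell from D4 to D6 (25.2% and 12.6%).

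**Figure D5:**
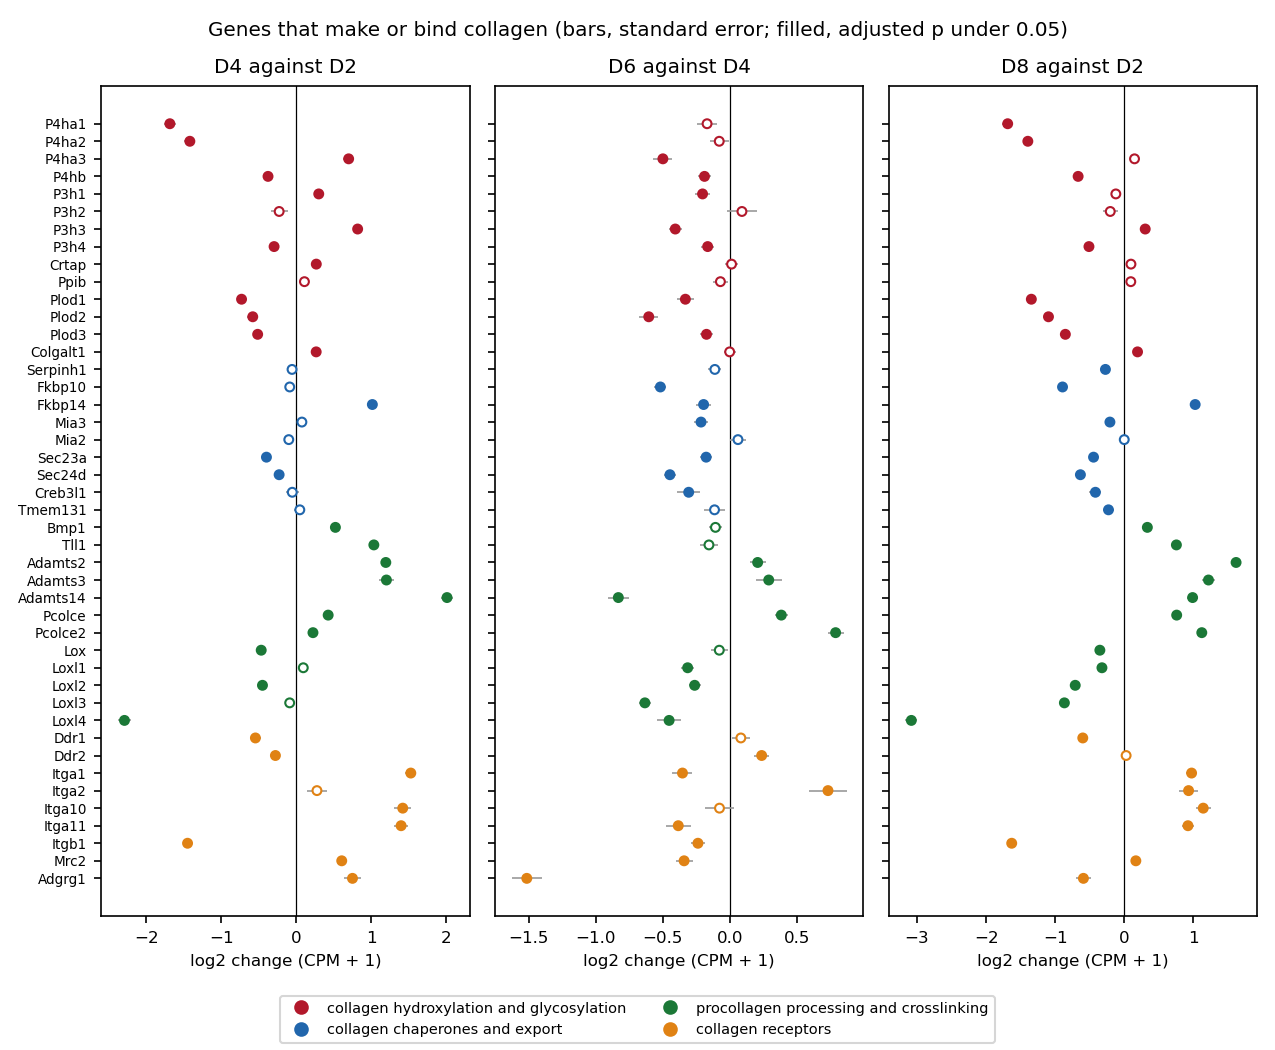
Change of log2(CPM + 1) (x axis) of the tested genes of 4 collagen-related lists (y axis, coloured by list) in 3 comparisons of days, with bars for the standard error and filled points for an adjusted p under 0.05. Loxl4 and P4ha1 lie far left and Adamts14, Itga1 and Itga10 far right in D4 against D2, and Loxl4 lies at -3.08 in D8 against D2.

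Fibroblast markers were read beside the whole family, and all 10 were detected. Their summed level was 18928 to 19395 CPM on D2, 12088 to 12696 on D4, 9771 to 10125 on D6 and 9802 to 10266 on D8. Most of the D2 sum was Fn1, which read 13032 and 12686 CPM on D2, 5909 and 6886 on D4, and 3258 and 3822 on D8. The members of that list did not move together. From D2 to D4 the means of Fn1, Thy1 and Vim went down, while those of Pdgfra, Pdgfrb, Dcn, Lum, Fap, Twist1 and Prrx1 went up. Dcn read 199.8 and 208 CPM on D2 and 1809 and 1754 on D8, and Lum 10.9 and 11.8 CPM on D2 and 819 and 869 on D8. Markers of other cell types were summed as well. Macrophage markers ranged from 58.9 to 89.0 CPM over all libraries, and Schwann cell and neural crest markers from 3.11 to 5.54. Endothelial markers summed to 68.9 to 71.4 CPM on D2 and 163 to 165 on D8, nearly all of it Tek (64.3 and 66.2 CPM on D2, 161 and 163 on D8), while Kdr fell from 4.17 and 4.48 to 0.824 and 1.18 CPM and Cldn5 and Emcn stayed at or under 0.206. Osteoblast markers summed to 33.7 to 44.3 CPM over all libraries, with Runx2 falling from 39.3 and 41.8 CPM on D2 to 18.1 and 19.1 on D8 and Bglap rising from 1.18 and 1.41 to 14.9 and 12.8 CPM. Skeletal muscle markers went from 6.87 to 7.02 CPM on D2 to 1.38 to 1.80 on D8, with 1 of 5 at 0 in all libraries. The part of these cell types in the collagen levels was not tested.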

How the data were processed

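Total RNA was sequenced on a BGISEQ-500 instrument, per the labels. Trimmomatic 0.39, featureCounts and the build mm10 are named in the submitters' processing notes, while no aligner, annotation release or strand setting is given in the sources used here. Although the deposited table is named for TPM, the authors scaled reads to CPM, to a sum of 1000000 per column with no step for gene length. Values were whole multiples of 1 hundredth of a read, and 52.8% to 54.3% of those above 0 were whole reads (tolerance 0.0002 reads), so reads were shared between genes and no count test was run. Symbols and coordinates came from GENCODE M21 (32029 identifiers matched, 79 did not). The 15358 genes that reached 1 CPM in 2 or more libraries entered 1 linear model of log2(CPM + 1) with day as a factor, which used all 8 libraries and left 4 residual degrees of freedom (limma 3.58.1, R 4.3.3, moderated with an intensity trend). Tests of this model were two-sided, and all tests were adjusted by Benjamini-Hochberg. The fit was tested on simulated data. Chain ratios were tested by exact permutation, as the share of arrangements whose between-day F statistic of log2 values was at least the observed one. That test has no direction. Python 3.11.15, numpy 2.4.6, pandas 2.3.3 and matplotlib 3.10.9 were used.

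All collagen genes may be named. Values in every library are given for most members with a day mean of at least 10 CPM and for some lower ones chosen after their values were seen, with ranges for the rest. From each of the 4 collagen-related lists the rule took up to 3 called genes with the largest rise and up to 3 with the largest fall in each comparison, and some of these are not printed. Serpinh1 was named after its values were seen. The members, lists and tests were chosen with earlier results of these data known. Markers of endothelial cells, macrophages, osteoblasts, Schwann cells and muscle were also summed. The alternatives were a pseudocount of 0.1, no filter, median-of-ratios scaling, quantile normalization, CPM without collagen genes, a replicate block, and leaving out each library in turn. Errors are SD over 2 libraries or SE of the fit, and the floor covers counting error only. At this depth the precision of low genes is limited by counting.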

Additional observations from a re-analysis of the deposited data

How the results depend on the processing

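With 2 libraries a day the smaller counts depend on single libraries, and the labels do not separate culture from technical spread. The 22 collagen genes that rose from D2 to D4 numbered 19 to 23 over the fits that left out 1 library, the 20 that fell from D4 to D6 numbered 16 to 20, and those that rose and fell from D2 to D8 numbered 15 to 17 and 12 to 13. Called under every setting were 18 rises and 1 fall from D2 to D4, 3 rises and 16 falls at the D6 step, 1 rise and 0 falls from D6 to D8, and 14 rises and 12 falls from D2 to D8. The share of all tested genes called under every setting was not computed, so these counts have no background beside them.

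The counts that moved by more than 1.5 times follow, and the cause was not tested. Falls from D2 to D4 (3) were 1 with no filter, 7 under median-of-ratios scaling, 7 under quantile normalization, and 1 (without D2 replicate 1) to 5 (without D4 replicate 2) when a library was left out. Rises from D4 to D6 (7) were 3 with no filter and 3 under each of the 2 scalings, and 4 to 7 when a library was left out, with 4 without D4 replicate 2 or D6 replicate 1. Rises from D6 to D8 (4) were 1 with no filter and 1 to 4 when a library was left out, with 1 without D6 replicate 2 and 2 without either D8 library. Falls from D6 to D8 (8) were 0 with no filter and 0 to 8 when a library was left out, with 0 without D6 replicate 2 and 1 without D8 replicate 1; at an unadjusted limma p under 0.05, 16 collagen genes passed that step with no filter and 13 without D6 replicate 2, in either direction. Over all tested genes the calls of that step, 725 higher and 674 lower, were 210 and 134 with no filter. Falls from D2 to D4 over all tested genes were 3330 as deposited, 4651 with median-of-ratios scaling and 4958 with quantile normalization. Rises from D4 to D6 over all tested genes were 3864, 2725 and 2681 in the same order. The collagen share with mitochondrial genes left out was 3.53% on D2 and 5.71% on D4.

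Leaving out 1 library gave log2 changes from D2 to D8 of 0.81 to 0.87 for Col6a2 to Col6a1, -1.53 to -1.40 for Col6a3 to Col6a1, -0.26 to -0.21 for Col1a2 to Col1a1, 1.94 to 2.05 for Col3a1 to Col1a1 and -0.61 to -0.57 for Col5a2 to Col5a1. For Col4a2 to Col4a1 the change was -0.024 with all libraries and -0.043 to -0.0052 when 1 was left out. Ddr2 in D8 against D2 turned to -0.16 under median-of-ratios scaling (adjusted p = 0.0243), and under quantile normalization Lox in the same comparison turned to 0.00098 and Col4a3 to -0.018.

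Over all tested genes, deviations of same-numbered libraries correlated between days at -0.10 to 0.21. Collagen genes were not checked alone, and their share of reads was higher in replicate 2 than in replicate 1 on each day. Whether the replicate numbers pair the samples cannot be told from these values. With the replicate block, 22 collagen genes rose and 4 fell from D2 to D4, 7 and 20 to D6 from D4, 4 and 8 to D8 from D6, and 17 and 12 from D2 to D8. A floor of 0.149 to 0.155 CPM limits what can be said of Col13a1 and the other members under 1 CPM.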
